A study of Homo sapiens with 12 samples.

Results

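Expression of 31 genes of cholesterol and fatty acid synthesis was compared by RNA sequencing between degron (++) and degron (−) cells. The genes form a list defined by function (mevalonate, sterol, SREBP and lipogenic genes), and all 31 are among the 23284 gene symbols measured. The list was chosen with earlier results of these data known. They comprise 6 enzymes of the mevalonate pathway and 9 enzymes that make squalene or act after it on the way to cholesterol. The others are 5 regulators of sterol regulatory element-binding proteins (SREBPs), 8 enzymes of fatty acid synthesis and desaturation, and 3 genes of sterol transport.

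Both populations are labelled as PANC-1, a human pancreatic ductal carcinoma line, and a marker described below goes against that label. The paper describes them as infected with a retrovirus that encodes ZsGreen fused to the degron of ornithine decarboxylase. The proteasome destroys this fusion protein, so fluorescence marks cells in which proteasome activity is low. Degron (−) cells are the infected line as a whole, in which few cells are green, and degron (++) cells are the brightest cells of a derivative that was enriched by repeated sorting and culture, so that selection history differs between the populations along with fluorescence. There are 12 libraries, 2 in each of 6 groups: for each population an unirradiated group (0 Gy, 48 h) and 2 irradiated groups (4 Gy, collected at 30 h or 48 h). The starting point of the hours is not given in the labels, there was no unirradiated group at 30 h, and no source used here says that the 2 libraries of a group came from separate cultures, so p-values measure only the spread between these libraries.

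The labels were checked against marker genes first. The titles of the 6 libraries taken as degron (−) call them ZsGreen-negative, whereas their descriptions call them d+. The paper also names degron (+), the enriched line from which degron (++) cells were taken. No marker used here tells these names apart, so this conflict was not settled. The libraries are called degron (−) after their titles. All 6 epithelial markers (KRT7, KRT8, KRT18, KRT19, EPCAM and CDH1) were called higher in degron (++) cells in each condition. Their summed level was 7184 to 8369 FPKM there against 4226 to 5137 FPKM in degron (−). KRT19 differed by log2 fold changes of only 0.17 at 0 Gy, 0.43 at 30 h and 0.23 with 4 Gy at 48 h. The paper reports no increase of KRT19, and the markers were not tested under other scalings. VIM, an intermediate filament of mesenchymal cells, lay at 13.2 to 19.2 FPKM in degron (++) and 2376 to 2711 FPKM in degron (−), while CDH2 was called higher in degron (++) in each condition. The sum of these 2 mesenchymal markers was 56.7 to 64.1 FPKM and 2386 to 2716 FPKM. CDKN2A, which PANC-1 is known to have lost by deletion, lay at 100.4 to 112 FPKM in degron (++) and 11.04 to 21.1 FPKM in degron (−), which goes against the labelled line. CD3E and DCN were listed at 0 in all 12 libraries, and PTPRC, PECAM1 and CDH5 stayed under 1 FPKM. Within that low range, CDH5 lay at 0.258 to 0.516 FPKM in degron (++) and 0.018 to 0.065 FPKM in degron (−). CD14, the third blood marker beside PTPRC and CD3E, was low but called higher in degron (++) in each condition (1.45 to 1.92 against 0.187 to 1.02 FPKM, log2 fold changes 1.07, 0.80 and 0.63). COL1A1 lay at 36.5 to 52.3 FPKM in degron (−) and under 1 FPKM in degron (++). COL3A1, a fibroblast marker like COL1A1 and DCN, lay at 0.016 to 0.067 FPKM in degron (−) and 0.064 to 0.168 FPKM in degron (++). Whether the populations differ in genotype was not tested, and that difference cannot be told apart from the difference in fluorescence in any comparison of the populations.

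Values are FPKM, fragments scaled to transcript length and to mapped reads, and hold no counts, so the depth behind each value is unknown. Summed over genes, FPKM came to 829654 to 916877 per library for degron (++) and to 707273 to 763064 for degron (−), and 28.6% to 30.0% and 22.5% to 27.1% of it, respectively, belonged to the single gene MIR622. Fold changes are differences of mean log2(FPKM + 1), so that changes at low FPKM appear smaller than they are. They are given with their standard error (SE) and were tested with limma over the 12946 genes that reached 1 FPKM in 2 or more libraries. A gene is called when its Benjamini-Hochberg adjusted p is under 0.05. Of the 31 genes, 30 passed the filter, and ABCA1 did not.

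Cells make cholesterol from acetyl-CoA through mevalonate, isoprenoid diphosphates, squalene and lanosterol, and make fatty acids from the same acetyl-CoA through malonyl-CoA. Both routes are controlled by SREBPs, which are held in the membrane of the endoplasmic reticulum by their escort SCAP and the anchor proteins INSIG1 and INSIG2 while sterols are abundant. When sterols fall, SCAP carries SREBPs to the Golgi, where they are cut, and the freed part enters the nucleus and activates genes of both routes, its own regulators among them. Tumour cells commonly make their own fatty acids even where these can be taken up.

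**Figure D1:**
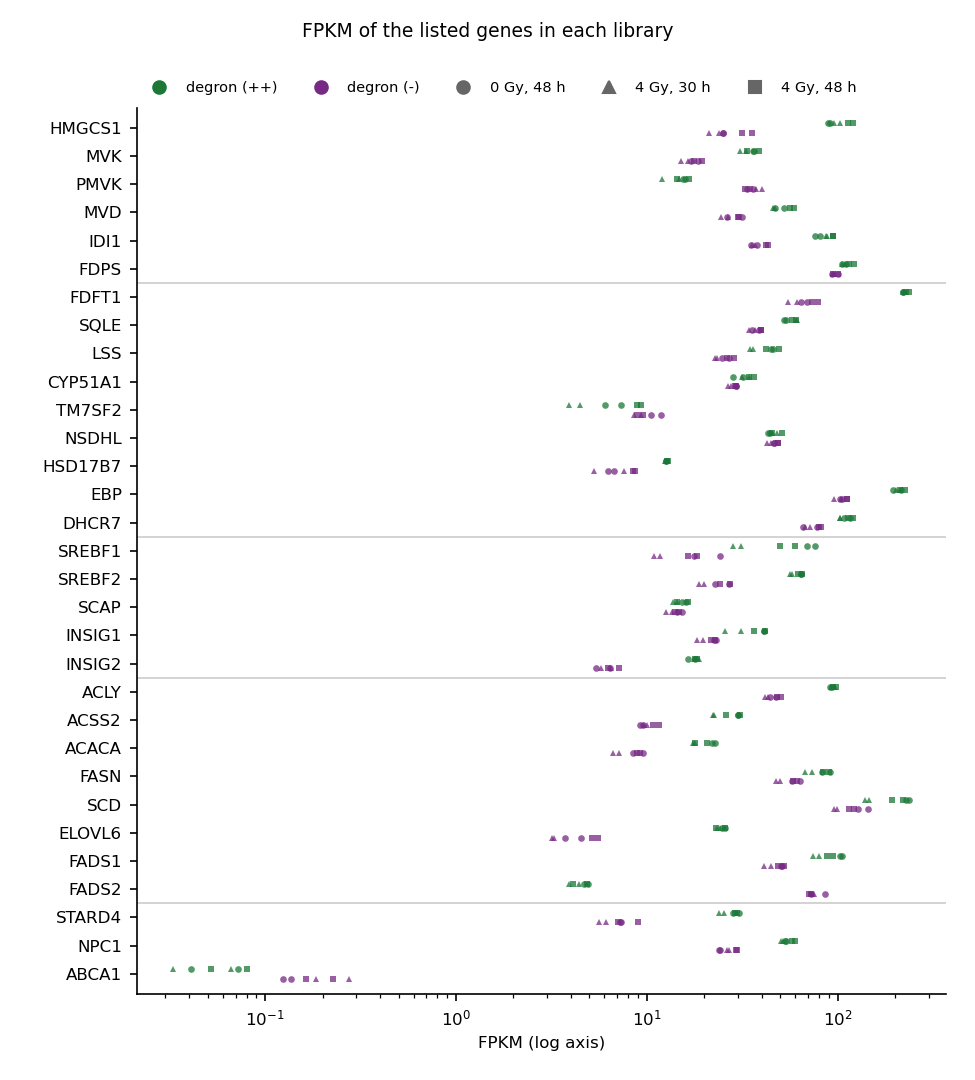
FPKM (horizontal log axis) of each of the 31 genes in each of 12 libraries. Colour gives the population, the marker shape gives dose and time, and grey lines separate the role groups in the order mevalonate, squalene and sterol, regulators, fatty acid and transport. FADS2 stands out at 3.90 to 4.94 FPKM in degron (++) and 70.9 to 86.2 FPKM in degron (−), opposite to most of the list.

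The first question was how the populations differ. In unirradiated cells at 48 h, 24 of the 30 tested genes were called higher in degron (++) cells and 3 were called lower, where 77.7% of all tested genes were called, 37.6% higher and 40.2% lower. The median log2 fold change of the 30 genes was 0.92, against −0.02 over all genes tested. At 4 Gy and 30 h the counts were 25 higher and 3 lower, where 79.1% of all genes were called (38.3% and 40.8%), and with 4 Gy at 48 h they were 25 higher and 2 lower, where 76.7% were called (37.1% and 39.6%). The medians were 0.86 and 0.87, against −0.02 and −0.01 over all genes. Because the list was chosen with earlier results known, such counts and medians describe it and are no independent test. In bulk RNA, more cells that express a gene and more RNA per cell cannot be told apart.

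The genes called higher in all 3 conditions, with the 6 degron (++) libraries above the 6 degron (−) libraries, numbered 23 of 30, where 32.1% of all genes met this. Those lower in the same way were FADS2 and PMVK, where 34.9% of all genes met it. A difference of at least 1 on the log2 scale in all 3 conditions was found for ACACA, ACSS2, ELOVL6, FDFT1, HMGCS1, IDI1, INSIG2, SREBF1, SREBF2 and STARD4, which is 10 of 30, where 8.25% of all genes reached it. These 3 comparisons share no library with each other, but they use the same estimate of each gene's spread. The libraries of a population also carry the label of 1 cell line. When each library was rescaled to a common sum (TPM), the median of all genes moved to −0.21, −0.27 and −0.25, and the counts of the list became 23 higher and 4 lower at 0 Gy, 23 and 6 at 30 h, and 23 and 5 with 4 Gy at 48 h. Of all genes called, the part that was higher then fell from 48.3%, 48.5% and 48.3% to 35.9%, 33.3% and 31.7%.

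**Figure D2:**
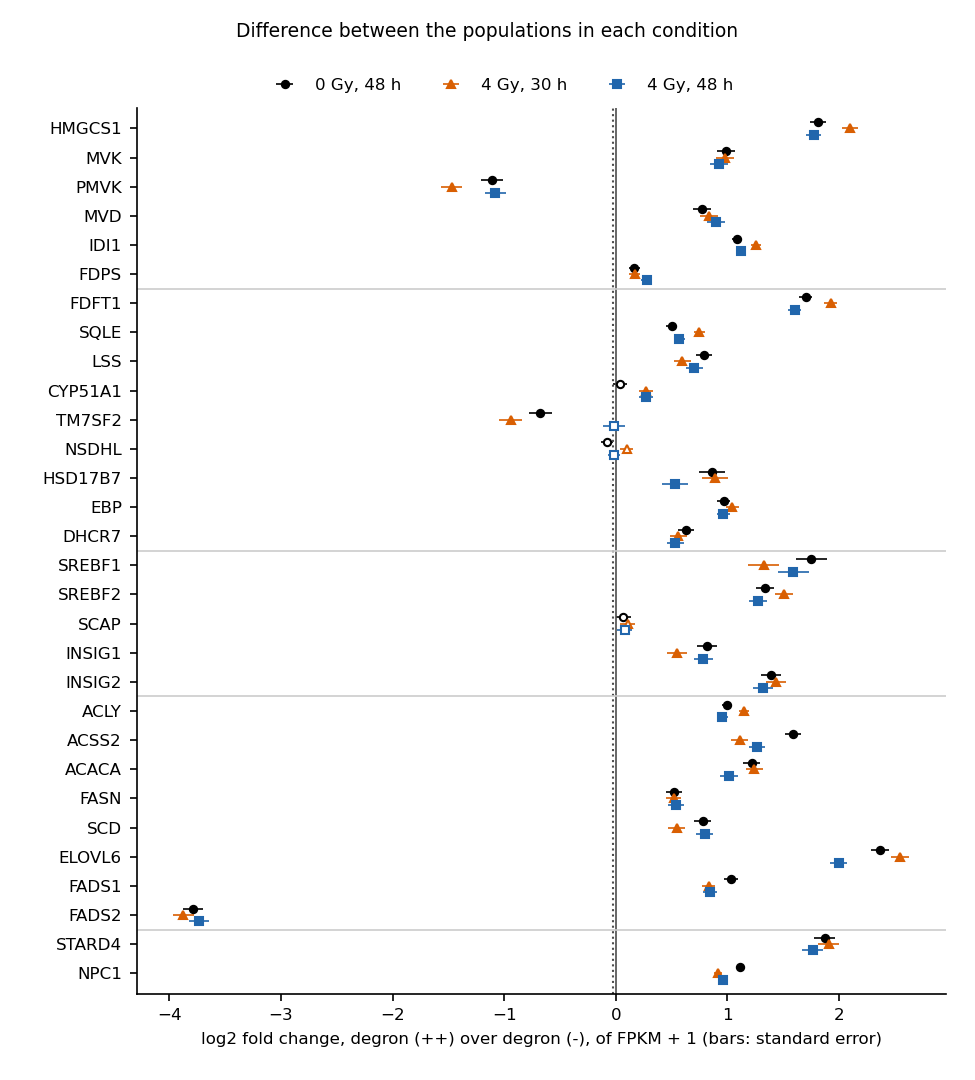
Log2 fold change of degron (++) over degron (−) (horizontal axis, of FPKM + 1, with SE bars) for the 30 tested genes in each of 3 conditions. Filled markers are called genes, the solid line is 0 and the dotted line is the median of all genes at 0 Gy. Most genes lie between 0.5 and 2 to the right, and FADS2 and PMVK lie to the left in each condition.

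**Figure D3:**
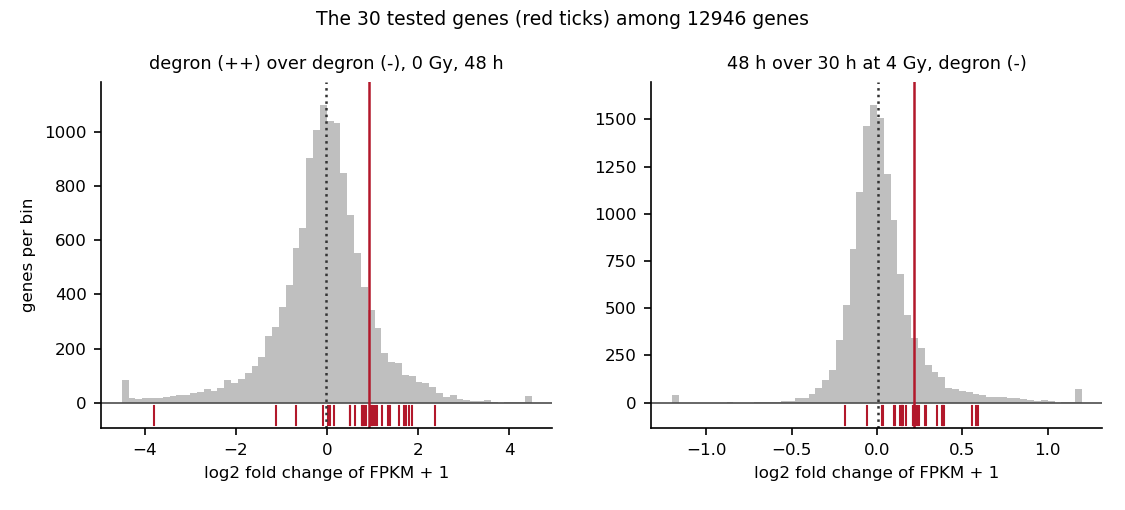
Number of genes (vertical axis) by log2 fold change of FPKM + 1 (horizontal axis) over all 12946 tested genes, for the populations at 0 Gy (left) and for 48 h over 30 h in degron (−) cells (right). Red ticks are the 30 listed genes, the red line is their median (0.92 and 0.22) and the dotted line is the median of all genes, and values past the axis are counted in the end bins.

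The regulators were taken first. SREBF2 encodes the SREBP that acts mainly on cholesterol genes. Its FPKM in degron (++) cells were 64.0 and 64.4 at 0 Gy, 56.1 and 57.6 with 4 Gy at 30 h, and 62.1 and 65.4 with 4 Gy at 48 h. In degron (−) cells they were 26.9 and 22.8, 18.8 and 20.0, and 24.2 and 27.5 in the same order. The populations did not overlap, with log2 fold changes of 1.34, 1.51 and 1.27 (SE 0.081, limma adjusted p at most 7.29e-07).

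SREBF1 encodes the SREBP forms that act mainly on fatty acid genes. It lay at 68.9 and 75.7 FPKM in degron (++) cells at 0 Gy, at 31.2 and 28.4 FPKM with 4 Gy at 30 h, and at 49.8 and 59.6 FPKM with 4 Gy at 48 h. In degron (−) cells it lay at 24.3 and 17.7, at 10.9 and 11.7, and at 16.5 and 18.3 FPKM. It was higher in degron (++) by 1.75, 1.32 and 1.59 on the log2 scale (SE 0.14, adjusted p at most 1.91e-05), and in both populations its lowest values were those at 30 h.

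INSIG1, an anchor that is itself a target of SREBPs, was measured at 41.0 and 41.1 FPKM in unirradiated degron (++) cells, at 31.1 and 25.7 at 30 h and at 36.6 and 41.9 with 4 Gy at 48 h. The degron (−) values were 23.1 and 22.6, 18.4 and 19.7, and 22.7 and 21.8 FPKM. INSIG2, the second anchor, had 17.9 and 16.4, 17.8 and 18.9, and 17.96 and 18.3 FPKM in degron (++) against 5.40 and 6.44, 5.78 and 6.52, and 6.28 and 7.12 in degron (−). Both anchors were called higher in degron (++) in each condition, INSIG1 by 0.82, 0.55 and 0.79 and INSIG2 by 1.39, 1.44 and 1.32 on the log2 scale. SCAP, the escort, was the exception among the regulators. Its FPKM were 15.3, 16.0, 14.5, 13.8, 14.4 and 16.4 in degron (++) and 15.3, 14.4, 12.7, 13.5, 14.1 and 14.8 in degron (−), in the same order of conditions. These ranges overlap, and no condition gave a call (log2 fold changes 0.07, 0.11 and 0.08, SE 0.067, adjusted p 0.375, 0.179 and 0.3).

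Because many of these genes are classical SREBP targets and most were called higher in degron (++) cells, the 250 bases before the start of transcription were read for 28 of the 31 genes from RefSeq (GRCh38.p14). FDFT1, SQLE and FASN had no entry in the promoter set used, so the motif counts leave them out. The sequences of 4 members are shown, the regulators SREBF2 and INSIG1 and the enzymes HMGCS1 and ELOVL6, which had the largest upward differences in the cholesterol and the fatty acid route. Capitals mark TCACNCCAC, a form of the sterol regulatory element, and CCAAT, the box of the factor NF-Y, on either strand, so that CCAAT on the other strand reads ATTGG. For HMGCS1, 1 of 2 listed starts is shown.
SREBF2, chr22:41832855-41833104, plus strand: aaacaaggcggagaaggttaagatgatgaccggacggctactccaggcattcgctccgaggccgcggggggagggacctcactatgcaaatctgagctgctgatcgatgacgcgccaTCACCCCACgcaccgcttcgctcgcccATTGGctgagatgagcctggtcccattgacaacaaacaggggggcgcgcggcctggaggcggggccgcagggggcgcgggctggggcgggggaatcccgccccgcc
INSIG1, chr7:155297628-155297877, plus strand: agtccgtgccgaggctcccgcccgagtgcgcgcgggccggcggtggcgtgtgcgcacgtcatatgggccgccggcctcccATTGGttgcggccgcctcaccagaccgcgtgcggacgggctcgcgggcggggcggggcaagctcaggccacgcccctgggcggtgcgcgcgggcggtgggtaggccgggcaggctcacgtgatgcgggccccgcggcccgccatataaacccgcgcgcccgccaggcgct
HMGCS1, chr5:43313413-43313662, minus strand: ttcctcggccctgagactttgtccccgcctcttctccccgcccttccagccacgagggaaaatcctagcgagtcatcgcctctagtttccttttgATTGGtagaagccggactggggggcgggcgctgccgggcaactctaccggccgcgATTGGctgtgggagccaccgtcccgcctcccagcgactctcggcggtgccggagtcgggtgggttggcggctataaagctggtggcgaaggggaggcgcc
ELOVL6, chr4:110198616-110198865, minus strand: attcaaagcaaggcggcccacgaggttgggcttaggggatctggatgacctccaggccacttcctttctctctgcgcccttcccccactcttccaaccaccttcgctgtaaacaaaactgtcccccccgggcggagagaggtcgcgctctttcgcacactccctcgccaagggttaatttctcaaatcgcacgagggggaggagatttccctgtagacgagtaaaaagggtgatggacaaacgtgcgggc
SREBF2 held both motifs, with TCACCCCAC from 133 to 125 bases before the start and ATTGG from 106 to 102 bases before it. HMGCS1 held ATTGG at 155 to 151 and at 100 to 96 bases before the start, INSIG1 held it at 170 to 166, and ELOVL6 held neither. Counted per gene, with a match in any of its listed promoters, TCACNCCAC was found for 1 of the 28 genes (3.57%), against 1.09% of all 27305 genes with a promoter and 1.25% of the 8982 tested genes among them. CCAAT was found for 18 of 28 (64.3%), against 37% of all and 41.9% of the tested genes. CACGTG, an E-box and the same on both strands, was found for 3 of 28 (10.7%), against 7.73% and 11.3%. The 3 genes were ABCA1, INSIG1 and SCAP, and in the INSIG1 sequence shown this motif stands in small letters. A match is a description of letters in this window and not a bound site.

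Among the mevalonate enzymes, 5 of 6 were called higher in degron (++) cells in each condition, and PMVK was called lower. In the 3 conditions, 77.7%, 79.1% and 76.7% of all genes were called, 37.6%, 38.3% and 37.1% higher. HMGCS1, which condenses acetyl units into the precursor of mevalonate, had the largest difference of the 6 enzymes. In degron (++) cells its FPKM were 91.7 and 89.4 at 0 Gy, 95.6 and 103 at 30 h, and 121 and 114 with 4 Gy at 48 h. In degron (−) cells they were 25.1 and 25.0, 21.2 and 23.8, and 31.6 and 35.7. The mean was 3.62, 4.42 and 3.48 times as high in degron (++), with log2 fold changes of 1.81, 2.097 and 1.77 (SE 0.071, adjusted p at most 4.02e-08).

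IDI1, which interconverts the isoprenoid building units, lay at 75.9 to 94.97 FPKM in degron (++) and 35.0 to 43.4 FPKM in degron (−), a difference of 1.09, 1.25 and 1.13 on the log2 scale. The kinase MVK (0.99, 0.98 and 0.92) and the decarboxylase MVD (0.77, 0.83 and 0.90) were also higher. FDPS, which makes farnesyl diphosphate, differed least, by 0.17, 0.17 and 0.28, and after rescaling to TPM its difference turned to −0.04 at 0 Gy and −0.11 at 30 h. The FDPS call was also lost without replicate 2 of either group at 0 Gy (adjusted p up to 0.0987) and without replicate 1 of either group at 30 h (up to 0.0766). PMVK, the second kinase of the pathway, lay at 12.02 to 16.7 FPKM in degron (++) and 32.9 to 40.1 FPKM in degron (−). Its log2 fold changes were −1.11, −1.47 and −1.08, so adjacent steps of 1 pathway differed in opposite directions.

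Of the 9 squalene and sterol enzymes, 6 were called higher and 1 lower at 0 Gy, 7 and 1 at 30 h, and 7 and 0 with 4 Gy at 48 h. Of all genes tested, 37.6%, 38.3% and 37.1% were called higher and 40.2%, 40.8% and 39.6% lower in these conditions. FDFT1, squalene synthase, was measured at 219 and 220.4, 227 and 219, and 228 and 237 FPKM in degron (++). It was measured at 69.3 and 64.7, 54.9 and 61.4, and 73.1 and 78.6 FPKM in degron (−). All degron (++) libraries lay above all degron (−) libraries, with log2 fold changes of 1.70, 1.92 and 1.60 (SE 0.060, adjusted p at most 2.75e-08).

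The later enzymes differed less. SQLE, which epoxidizes squalene, was higher by 0.50, 0.75 and 0.57, LSS, which closes the ring to lanosterol, by 0.79, 0.60 and 0.70, and HSD17B7, a sterol ketoreductase, by 0.86, 0.89 and 0.53. EBP, a sterol isomerase, was higher by 0.97, 1.04 and 0.96, and DHCR7, which performs a last reduction to cholesterol, by 0.63, 0.56 and 0.53. CYP51A1, which demethylates lanosterol, was called at 4 Gy with 0.27 at both times and not at 0 Gy (0.03, adjusted p = 0.634), and its 30 h value turned to −0.01 after rescaling to TPM. NSDHL, a sterol dehydrogenase, was at 43.4 to 51.0 FPKM in degron (++) and 42.8 to 48.6 FPKM in degron (−) and gave no call. CYP51A1, FDPS, HSD17B7, FADS2 and SCD have named pseudogenes, and reads shared with them make their values less certain.

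TM7SF2, a sterol reductase, was called lower in degron (++) in 2 of the 3 conditions. It lay at 7.34 and 6.02 FPKM in unirradiated degron (++) cells, at 4.48 and 3.91 at 30 h, and at 8.86 and 9.32 with 4 Gy at 48 h. In degron (−) cells the values were 11.9 and 10.5, 8.59 and 9.36, and 8.86 and 9.56 FPKM. The log2 fold changes were −0.67 at 0 Gy and −0.94 at 30 h (adjusted p = 0.000207 and 1.98e-05), and with 4 Gy at 48 h the groups overlapped with a difference of −0.02.

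All 8 fatty acid enzymes were called in each condition, 7 higher and FADS2 lower in degron (++). The share of all genes called in these conditions was 77.7%, 79.1% and 76.7%, with 37.6%, 38.3% and 37.1% higher. ACLY and ACSS2, which make acetyl-CoA from citrate and from acetate, were higher by 0.998, 1.15 and 0.96 and by 1.59, 1.11 and 1.27 on the log2 scale. ACACA, which forms malonyl-CoA, was higher by 1.22, 1.24 and 1.01, and FASN, the synthase of palmitate, by 0.52, 0.52 and 0.54. ELOVL6, which lengthens palmitate, had the largest difference among all members that were higher. Its FPKM were 25.8 and 24.9, 23.2 and 24.2, and 25.7 and 23.1 in degron (++) and 4.497 and 3.72, 3.27 and 3.19, and 5.17 and 5.55 in degron (−). The ratio of means was 6.16, 7.34 and 4.55, with log2 fold changes of 2.37, 2.55 and 1.996 (SE 0.080, adjusted p at most 4.08e-08).

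SCD, which puts a double bond into saturated fatty acids, was at 229 and 237, 146 and 139, and 193 and 221 FPKM in degron (++). In degron (−) it was at 144 and 128, 95.3 and 99.6, and 114 and 123 FPKM. It was higher in degron (++) by 0.78, 0.54 and 0.80 within each condition, while the levels of the populations overlapped across conditions.

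FADS1 and FADS2, the desaturases of polyunsaturated fatty acids, are neighbouring genes on chromosome 11 and differed in opposite directions. FADS2 had 4.70 and 4.94 FPKM at 0 Gy, 3.90 and 4.43 at 30 h, and 4.09 and 4.84 with 4 Gy at 48 h in degron (++). In degron (−) it had 86.2 and 73.0, 73.7 and 75.6, and 70.9 and 72.4 FPKM, so that its mean was 16.5, 17.9 and 16.0 times as high. The log2 fold changes of −3.79, −3.87 and −3.73 (SE 0.091, adjusted p at most 2.02e-09) were the largest of the list in absolute size. FADS1 lay at 74.5 to 106 FPKM in degron (++) and 41.0 to 52.1 FPKM in degron (−), a difference of 1.03, 0.83 and 0.84. FADS3, the next gene on the other side of FADS2 and no member of the list, was also higher in degron (++), by 1.23, 1.09 and 1.003. To show how the sequences before these oppositely ordered neighbours compare, the 250 bases before a listed start of each are given, from GRCh38.p14.
FADS1, chr11:61817004-61817253, minus strand: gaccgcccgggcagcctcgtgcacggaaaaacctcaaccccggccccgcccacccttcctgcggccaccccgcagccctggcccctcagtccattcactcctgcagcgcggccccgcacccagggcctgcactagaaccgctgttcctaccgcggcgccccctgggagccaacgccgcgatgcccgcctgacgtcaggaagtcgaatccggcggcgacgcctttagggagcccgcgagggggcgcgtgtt
FADS2, chr11:61815953-61816202, plus strand: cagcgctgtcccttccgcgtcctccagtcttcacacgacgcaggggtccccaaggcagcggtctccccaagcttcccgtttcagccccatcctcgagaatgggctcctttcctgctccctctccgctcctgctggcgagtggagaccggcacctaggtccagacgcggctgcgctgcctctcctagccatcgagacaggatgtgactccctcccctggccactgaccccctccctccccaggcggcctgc
FADS2 has 2 listed starts, of which 1 is shown. By its coordinates, the FADS2 window shown lies on the transcribed side of the FADS1 start. Which FADS2 start these cells use was not tested. Neither sequence shown holds TCACNCCAC or CCAAT.

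Of the transport genes, STARD4, a sterol carrier of the cytosol, lay at 28.2 and 30.6, 25.5 and 23.9, and 29.1 and 29.8 FPKM in degron (++). In degron (−) it lay at 7.32 and 7.26, 5.60 and 6.11, and 7.04 and 8.98 FPKM, and the log2 fold changes were 1.87, 1.91 and 1.77 (SE 0.094, adjusted p at most 2.33e-07). NPC1, which exports cholesterol from lysosomes, was at 50.4 to 59.7 FPKM against 23.8 to 29.9 FPKM, a difference of 1.11, 0.91 and 0.96. ABCA1, a cholesterol efflux pump and a target of liver X receptors, was at 0.033 to 0.08 FPKM in degron (++) and 0.124 to 0.275 FPKM in degron (−), too low for the filter.

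**Figure D4:**
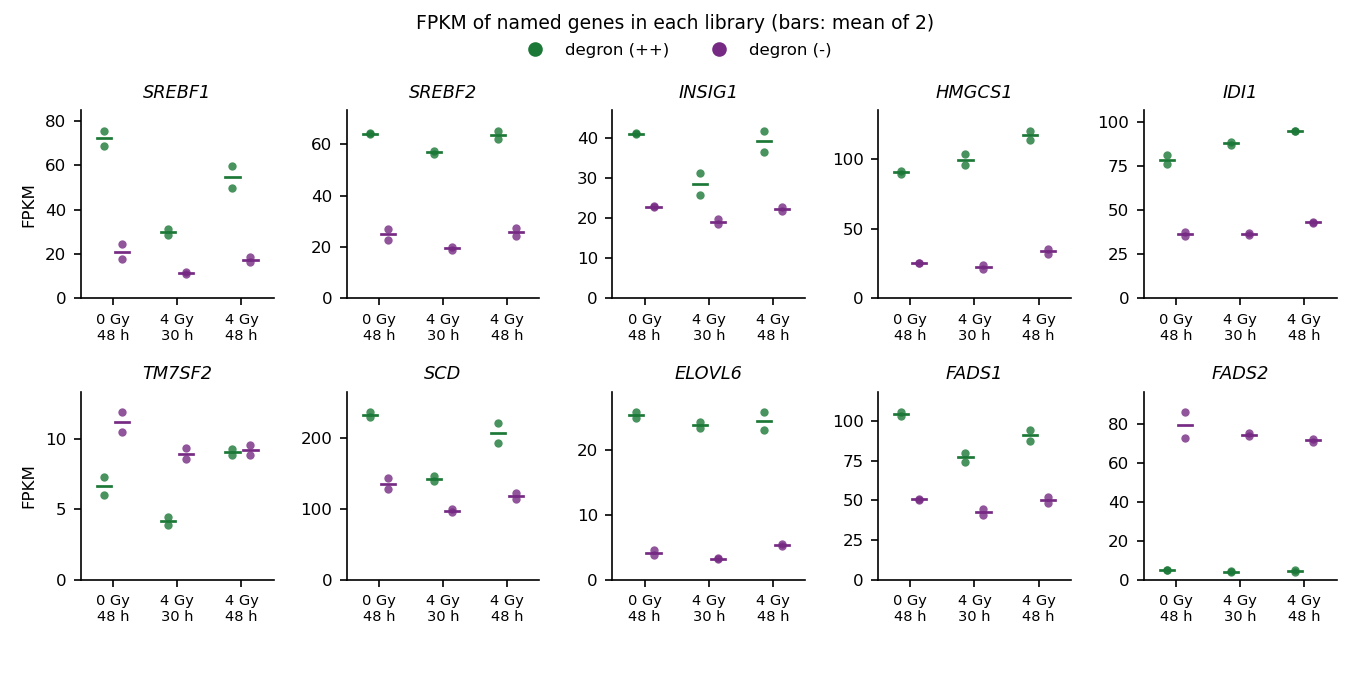
FPKM (vertical axes, from 0) of 10 named genes in each library by dose and time, with bars for the mean of 2 libraries. SREBF1, SCD and INSIG1 have their lowest values with 4 Gy at 30 h in both populations, TM7SF2 has no gap between the populations with 4 Gy at 48 h, and FADS2 is near the bottom axis in degron (++).

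The next question was whether 4 Gy changed these genes at 48 h. In degron (++) cells, 2 of 30 genes were called, both higher at 4 Gy, where 1.82% of all genes were called, 1.42% higher and 0.402% lower, and the median was 0.02 against 0.00 over all genes. These were HMGCS1 (0.37 ± 0.071 SE, adjusted p = 0.0443) and IDI1 (0.27 ± 0.044, adjusted p = 0.027), both enzymes of the mevalonate pathway. HMGCS1 went from 91.7 and 89.4 to 121 and 114 FPKM, and IDI1 from 75.9 and 80.9 to 94.6 and 94.97 FPKM. Neither call held when any of the 4 libraries was left out (adjusted p 0.123 to 0.188 and 0.0586 to 0.162), and no gene of the list was called after rescaling to TPM or with the replicate number as a block. At an unadjusted p under 0.05, 13 genes of the list passed, against 2282 of the 12946 genes tested (1316 higher and 966 lower), with positive values for mevalonate and sterol enzymes and NPC1 (9 genes) and negative for SREBF1 (−0.40), ACACA (−0.20), SCD (−0.17) and FADS1 (−0.20), with no adjusted p under 0.05 beyond HMGCS1 and IDI1.

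In degron (−) cells, 3 of 30 genes were called at 4 Gy, all higher, where 4.73% of all genes were called, 3.85% higher and 0.873% lower, and the median was 0.07 against 0.01. HMGCS1 went from 25.1 and 25.0 to 31.6 and 35.7 FPKM (0.41 ± 0.071, adjusted p = 0.0171). IDI1 went from 37.6 and 35.0 to 43.4 and 42.4 FPKM (0.23 ± 0.044, adjusted p = 0.023), and NPC1 from 24.3 and 23.8 to 29.4 and 29.9 FPKM (0.29 ± 0.035, adjusted p = 0.00406). HMGCS1 and IDI1 were thus called in both populations. These calls share no library, but they come from the same fit and use the same estimate of each gene's spread. Leaving out 1 library at a time kept NPC1 in 4 of 4 fits and HMGCS1 and IDI1 in 1 of 4 each (adjusted p up to 0.105 and 0.12), so that 1 call was left without replicate 2 of either group. With only these 4 libraries in the fit, 0 of the 3 passed. Of the 6 epithelial markers, KRT7, EPCAM and CDH1 were also called higher at 4 Gy in these libraries, as was the mesenchymal marker CDH2 (0.47), the summed level of the 6 being 4407 to 4782 FPKM at 0 Gy and 4995 to 5137 FPKM at 4 Gy, and their part in the result was not tested.

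The difference between the populations in their response to dose was tested as an interaction. No gene of the list was called, and limma called 10 genes in all (0.0772%, of which 0.0232% with a positive and 0.0541% with a negative value). At an unadjusted p under 0.05 there were 5 genes of the list and 1758 of all genes. The 5 were TM7SF2 (0.66), CYP51A1 (0.23), ELOVL6 (−0.37), ACSS2 (−0.32) and NPC1 (−0.15), where a positive value means a higher response in degron (++).

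The last question was how expression after 4 Gy differed between 30 h and 48 h. In each population, the comparisons of time and dose both use the 2 libraries with 4 Gy at 48 h, and so are not independent. In degron (++) cells, 4 of 30 genes were called, all higher at 48 h, where 1.21% of all genes were called, 0.657% higher and 0.548% lower, and the median was 0.17 against 0.00. TM7SF2 went from 4.48 and 3.91 to 8.86 and 9.32 FPKM (0.96 ± 0.10 SE, adjusted p = 0.00734). SREBF1 went from 31.2 and 28.4 to 49.8 and 59.6 FPKM (0.85 ± 0.14, adjusted p = 0.0337), and SCD, one of its known targets, from 146 and 139 to 193 and 221 FPKM (0.53 ± 0.075, adjusted p = 0.0193). NPC1 went from 52.0 and 50.4 to 57.6 and 59.7 FPKM, a change of 0.19 ± 0.035 (adjusted p = 0.0414). In these 4 genes, both libraries at 48 h lay above both at 30 h. The genes were picked by their call in the same libraries, so this is no separate support. At an unadjusted p under 0.05 there were 15 genes of the list, all higher at 48 h, against 2050 of all 12946 genes (1048 higher and 1002 lower), and INSIG1 was among the 15 with 0.45 (adjusted p = 0.0529). In the same libraries the mesenchymal marker VIM went from 19.2 and 17.8 to 14.6 and 13.2 FPKM and was called lower at 48 h (−0.39, adjusted p = 0.0388), while CDH2 and the 6 epithelial markers gave no call, and the part of VIM in the result was not tested. Leaving out 1 library at a time kept TM7SF2 in 2 of 4 fits, SCD in 1, and SREBF1 and NPC1 in 0, with 0 calls left without replicate 2 of either group and 1 without replicate 1 at 30 h.

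In degron (−) cells, 11 of 30 genes were called, all higher at 48 h, where 7.18% of all genes were called, 6.01% higher and 1.17% lower, and the median was 0.22 against 0.00. They were 2 mevalonate enzymes (HMGCS1 and IDI1), 1 sterol enzyme (FDFT1), 2 regulators (SREBF1 and SREBF2), 4 fatty acid enzymes (ACLY, ACACA, FASN and ELOVL6) and both tested transport genes (STARD4 and NPC1). Of these, HMGCS1, IDI1 and NPC1 were also called for dose in degron (−), where the same libraries with 4 Gy at 48 h were used. ELOVL6 went from 3.27 and 3.19 to 5.17 and 5.55 FPKM (0.59 ± 0.080, adjusted p = 0.0035). SREBF1 went from 10.9 and 11.7 to 16.5 and 18.3 FPKM (0.58 ± 0.14, adjusted p = 0.0406), and HMGCS1 from 21.2 and 23.8 to 31.6 and 35.7 FPKM (0.56 ± 0.071, adjusted p = 0.00259). SREBF2 and STARD4 followed with 0.39 each (adjusted p = 0.0236 and 0.0425), and SREBF2 went from 18.8 and 20.0 to 24.2 and 27.5 FPKM. None of these 5 genes had overlapping libraries between the times, which is no separate support, because they were picked by their call in the same libraries. At an unadjusted p under 0.05 there were 23 genes of the list, all higher at 48 h, against 2890 of all 12946 genes (1832 higher and 1058 lower). HMGCS1 and ELOVL6 kept the call in 4 of 4 fits that left out 1 library and FDFT1 in 3, while the other 8 kept it in 0 or 1, so that the count of 11 became 3 and 5 without replicates 1 and 2 at 30 h and 6 and 2 without replicates 1 and 2 at 48 h. With only these 4 libraries in the fit it was 3.

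Other genes that differ between the populations moved with this result. All 11 genes were also called higher in degron (++) than in degron (−) cells at 0 Gy, in libraries that the comparison of times did not use, and this held for 751 of the 778 genes called higher at 48 h over the whole table (96.5%), against 80% of the tested list and 37.6% of all genes. CDKN2A went from 12.4 and 11.04 FPKM at 30 h to 21.1 and 19.1 FPKM at 48 h in degron (−) cells (0.73, adjusted p = 0.00277). Of the 6 epithelial markers, KRT7, EPCAM and CDH1 were called higher, and the summed level of the 6 was 4226 to 4375 FPKM at 30 h and 4995 to 5137 FPKM at 48 h. VIM lay at 2709 and 2711 FPKM at 30 h and at 2529 and 2376 FPKM at 48 h and was not called, while CDH2 was called higher (0.76). The part of these differences in the result was not tested.

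**Figure D5:**
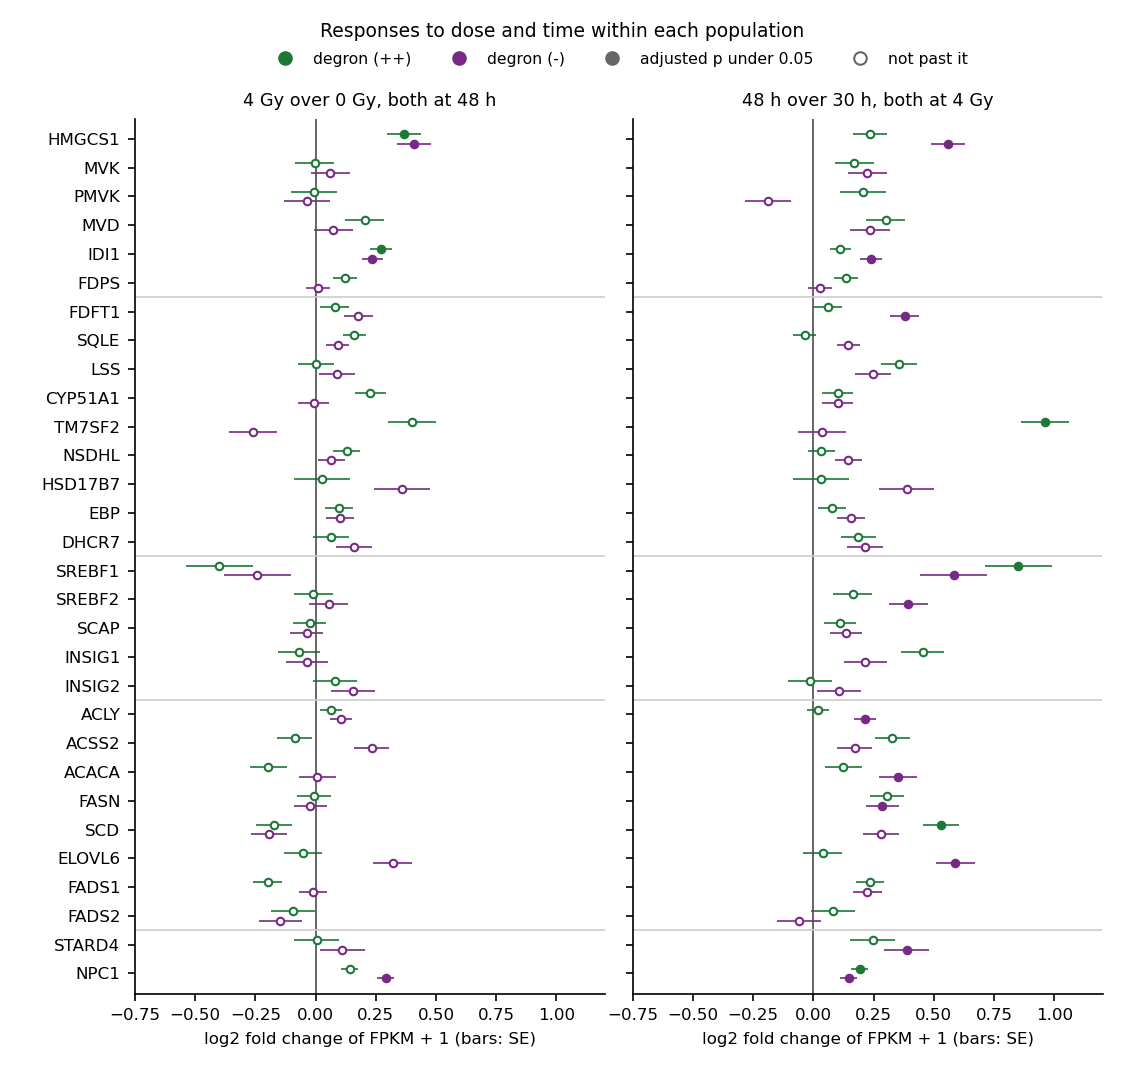
Log2 fold change of FPKM + 1 with SE bars (horizontal axes) for the 30 tested genes in each population, for 4 Gy over 0 Gy at 48 h (left) and for 48 h over 30 h at 4 Gy (right). Filled markers are called genes. On the right, 11 genes are filled in degron (−) and 4 in degron (++), all above 0, with TM7SF2 farthest out in degron (++).

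The interaction of time and population was called for 2 of 30 genes, 1 in each direction, where 3.23% of all genes were called, 0.51% with a positive and 2.72% with a negative value. TM7SF2 had 0.93 ± 0.14 (adjusted p = 0.0151): its difference between the times was 0.96 in degron (++) and 0.03 in degron (−). ELOVL6 had −0.55 ± 0.11 (adjusted p = 0.0392), with 0.04 in degron (++) and 0.59 in degron (−). Leaving out each of 8 libraries kept TM7SF2 in 4 fits (adjusted p up to 0.0637, lost without replicate 2 of degron (++) at either time and without either degron (−) library at 30 h) and ELOVL6 in none (0.0601 to 0.135). CDKN2A, KRT7, EPCAM, CDH1 and CDH2 were called with a negative value in the same test, as ELOVL6 was, and their part in it was not tested.

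Further genes of the same pathways, 45 in 5 lists (other sterol synthesis, SREBP processing, liver X receptors and targets, other fatty acid genes, and other sterol transport), were set beside these. Of 43 tested, 25 were called higher and 9 lower in degron (++) at 0 Gy (median 0.36), 22 and 10 at 30 h (0.24), and 24 and 9 with 4 Gy at 48 h (0.24), with ABCG1 and ELOVL4 too low for the filter. Over all genes, 77.7%, 79.1% and 76.7% were called in these comparisons, 37.6%, 38.3% and 37.1% higher. The largest differences upward at 0 Gy were in ACSL5, which activates fatty acids (2.099), the elongase ELOVL7 (2.03) and TMEM97, a sterol-responsive membrane protein (1.502), and these 3 also led at 30 h (2.54, 2.32 and 1.83) and with 4 Gy at 48 h (1.74, 1.79 and 1.54). The largest downward at 0 Gy were in ELOVL5, an elongase of polyunsaturated fatty acids (−1.44), MBTPS2, the protease that makes the second cut in SREBPs (−0.92), and SC5DL, a late sterol desaturase (−0.76), with −1.43, −0.94 and −0.75 at 30 h and −1.39, −0.94 and −0.63 with 4 Gy at 48 h, where ACACB, a malonyl-CoA enzyme, was lower still than SC5DL (−0.68). ELOVL5 lay at 40.4 to 44.6 FPKM in degron (++) and 108 to 117 FPKM in degron (−), so it was lower in degron (++) as FADS2 was, which acts in the same route. FADS1, also of that route, was higher in degron (++), at 74.5 to 106 FPKM against 41.0 to 52.1 FPKM.

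For dose, 1 of the 43 was called in degron (++) and 4 in degron (−), where 1.82% and 4.73% of all genes were called. For time, 1 and 7 were called, where 1.21% and 7.18% of all genes were. LIPA, the lysosomal lipase that frees cholesterol from its esters, was the one called for dose in degron (++) (0.27, adjusted p = 0.0237). In degron (−) it was called with ELOVL7 (0.35), OSBP (0.21) and ACSL4 (0.18), LIPA itself having 0.23. Between 30 h and 48 h, ACSL3 was called in degron (++) (0.27), and 7 genes were called in degron (−), all higher at 48 h, the largest being ACSL5 (0.55), ELOVL7 (0.55) and TMEM97 (0.35). The interaction of dose gave 0 calls among these 43 genes by limma (6 at an unadjusted p under 0.05), where 0.0772% of all genes were called, and that of time gave 2, ACSL5 (−0.80) and ELOVL7 (−0.53), where 3.23% were.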

How the data were processed

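RNA from 12 libraries was prepared with a stranded mRNA kit. FPKM per gene symbol were deposited by the authors, 1 file per library. The submitters' processing notes name TopHat2 2.1.1, Bowtie2 2.2.8, SAMtools 0.1.18, Cuffdiff 2.2.1 and hg19, and the strand setting of the counting is not given in the sources used here. From the FPKM, log2(FPKM + 1) was fitted with limma 3.58.1 (R 4.3.3) with 6 group means over all 12 libraries and eBayes with trend, on 12946 of 23284 genes (those reaching FPKM 1 in 2 or more libraries), and Benjamini-Hochberg adjusted. The fit was also run on simulated data with independent noise, scored for the dose in degron (++) alone. That run does not bear on the other comparisons. The members, role groups and lists were chosen with earlier results of these data known. Values in every library are given for the 5 regulators and, per comparison, for up to 5 called members with the largest change; of other pathway genes the 3 largest called in each direction are named. Markers and FADS3 are named as checks. Promoters are from RefSeq (GRCh38.p14), pseudogene names from GENCODE 29, read with Python 3.11.15. The alternatives changed the pseudocount (0.1), the filter (none, or FPKM 5), the scaling (quantiles, or rescaling to TPM) and the model (a constant prior variance, a replicate block, the compared libraries alone, each library left out).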

Additional observations from a re-analysis of the deposited data

Results flagged for a closer look

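Both results came from the test of the difference between the populations itself. TM7SF2 differed between the populations in its change from 30 h to 48 h after 4 Gy, with an interaction of 0.93 on the log2 scale (0.9261, limma adjusted p = 0.0151, range 0.0122 to 0.0637 over 16 alternatives). ELOVL6 differed in the other direction, with −0.55 (−0.5509, adjusted p = 0.0392, range 0.0292 to 0.135 over 16 alternatives).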

How the results depend on the processing

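Of 104 calls of listed genes over the comparisons, 104 kept direction and threshold with a pseudocount of 0.1 and with a filter at FPKM 5, 98 with no filter, 100 with quantile normalization, 93 with TPM rescaling, 95 without trend, 96 with the replicate block and 87 with only the libraries compared. TPM rescaling turned FDPS to −0.0417 (0 Gy) and −0.11 (30 h) and CYP51A1 to −0.0054 (30 h). Counts of listed genes called moved as follows. For the dose in degron (++), the 2 calls became 1 with no filter or quantile normalization and 0 with TPM rescaling, without trend, with the replicate block, with only the libraries compared and in each leave-one-out fit (0 to 0). For the dose in degron (−), the 3 calls became 0 with only the libraries compared and 1 to 3 on leaving out a library. For time in degron (++), the 4 calls became 2 without trend, 2 with the block, 1 with only the libraries compared and 0 to 3 on leaving out a library. For time in degron (−), the 11 became 6 without trend, 3 with only the libraries compared and 2 to 6 on leaving out a library. For the interaction of time, the 2 became 1 with no filter, TPM rescaling, the block or only the libraries compared, and 0 to 1 on leaving out a library. The counts between the populations stayed at 26 to 29 in all alternatives, and the interaction of dose at 0. Differences between replicates correlated at −0.0381 to 0.122 between groups, over 0.1 in 2 of 15 pairs. These values cannot exclude that replicates of the same number were handled together. The block was used as an alternative alone, and it gave 8 calls for time in degron (−). Over all genes, calls for the dose in degron (++) were 236 and became 149 with quantiles, 57 with TPM, 128 without trend and 125 with the block, and in degron (−) 612 became 341 with TPM. For time in degron (++), 156 became 40 with TPM, 78 without trend and 88 with the block, and in degron (−) 930 became 611 with TPM. The interaction of dose had 10 calls, with 17 at the pseudocount of 0.1, 22 with the filter at FPKM 5, 35 with quantiles, 20 with TPM and 2 with the block, and that of time had 418, with 273 without a filter and 225 with TPM. The cause of these shifts was not tested. Where a library is left out, the one remaining in its group is assumed to vary like the others. FPKM give no depth, and with 2 libraries a group the spread rests on all 6 groups.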
